A study of Rattus norvegicus with 6 samples.

Results

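The genes described here are the enzymes of glycolysis, the enzymes that turn pyruvate into lactate or pass it to the mitochondrion, and the regulators and targets of the response to low oxygen, measured in cerebral arteries of Dahl rats on a high salt or a low salt diet. The list held 38 genes, chosen by gene symbol. Of these, 35 had a probe set of their own that entered the tests, out of 10411 genes and 15866 probe sets in all: 25 glycolytic and pyruvate genes, and 10 hypoxia genes. Gapdh was measured only by control probe sets and is given as values without a test. No value is given for Pkm, whose probe set the annotation shares with a second gene, nor for Car9. Dahl rats include a line whose blood pressure rises on salty chow. In the high salt group rats ate chow with 8% NaCl from 7 weeks of age, for 11 weeks by one field of the labels and 12 weeks by another. In the low salt group rats ate chow with 0.4% NaCl from the same age for 12 weeks. All rats had low salt chow before the study began. The samples were intact branches of the middle and posterior cerebral and the posterior cerebellar arteries, stored by freezing or in RNAlater, with no label tying a sample to its storage. Each of the 3 arrays of a diet held RNA pooled from 3 rats, so that a diet stands for 9 rats, and single rats were not measured.

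Glycolysis splits glucose to pyruvate in the cytosol, and lactate dehydrogenase turns pyruvate into lactate while restoring the oxidised cofactor that glycolysis needs. Pyruvate dehydrogenase instead feeds pyruvate to the mitochondrion, and its kinases switch it off by phosphorylation. Arterial smooth muscle is known for making lactate even with oxygen at hand. When oxygen falls, prolyl hydroxylases stop marking the HIF alpha subunits for destruction by the von Hippel-Lindau protein. The alpha subunits then pair with Arnt and bind DNA at a short core, ACGTG or GCGTG, near their target genes, many of which encode glycolytic enzymes. Since HIF alpha proteins are controlled mainly by their stability, their mRNA levels do not measure their activity.

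The core was searched for in the 250 bases before the annotated starts of each gene, on both strands, in RefSeq promoter sequences of the rat assembly GRCr8. Of 36 members with a promoter entry, 21 held it, or 58.3%, against 54.7% of the 8630 genes on the array that had an entry and 39.6% of all 27457 genes with one. The median GC content of these windows was 62.4% in the members and 60.0% in the genes on the array, and the core itself holds a CG pair. Members thus held the core about as often as other genes on the array. The table has no entry for Pgk1 and Ndrg1. The windows below show the 150 bases before a start, 5′ to 3′ on the gene's strand, with each match to the core on either strand in capitals. They are given for Ddit4, Pdk2 and Eno1, the 3 members with no overlap between diets that hold the core within that stretch, and for Ldha, a textbook HIF target with 4 matches. In Ldha and Pdk2 a pair of matches overlaps in the palindrome CACGTG, which other factors are also known to bind. Epas1 and Eno3, which also did not overlap between diets, held no match in the 250 bases.
Ddit4 (GRCr8 chr20:28437038-28437187, minus strand): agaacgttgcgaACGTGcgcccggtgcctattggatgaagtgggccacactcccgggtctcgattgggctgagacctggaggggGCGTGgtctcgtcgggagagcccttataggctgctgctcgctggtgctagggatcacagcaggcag
Pdk2 (GRCr8 chr10:80483913-80484062, minus strand): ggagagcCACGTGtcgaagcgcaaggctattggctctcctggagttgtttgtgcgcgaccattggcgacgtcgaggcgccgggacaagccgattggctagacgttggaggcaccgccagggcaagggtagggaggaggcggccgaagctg
Eno1 (GRCr8 chr5:166002717-166002866, plus strand): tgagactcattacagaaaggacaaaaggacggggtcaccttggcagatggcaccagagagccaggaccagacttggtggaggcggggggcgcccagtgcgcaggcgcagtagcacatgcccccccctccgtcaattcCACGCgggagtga
Ldha (GRCr8 chr1:106507942-106508091, plus strand): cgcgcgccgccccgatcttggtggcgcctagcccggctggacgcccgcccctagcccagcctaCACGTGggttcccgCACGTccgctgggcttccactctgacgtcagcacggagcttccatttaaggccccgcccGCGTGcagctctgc

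Values are log2 expression as the authors deposited it, after RMA, and differences are high salt minus low salt. All 7 smooth muscle markers were measured, with means over the arrays from 9.14 (Smtn) to 13.56 (Tagln). Markers of other cells were measured too. Their means ran from 6.88 (Slc1a2) to 12.96 (Gja1) for astrocytes and from 9.94 (Col1a1) to 12.55 (Dcn) for fibroblasts. For red blood cells they ran from 7.50 (Slc4a1) to 13.47 (Hbb). The levels show that smooth muscle RNA was present and not that the arteries were free of other cells. Low salt replicate 1 stood apart. Its values were the least spread (interquartile range 2.57, against 2.92 to 3.18 on the other arrays). Of all genes, 36.5% had their lowest value there and 29.1% their highest. On the other arrays these shares ran from 7.8% to 23.1% (low salt replicate 2) and from 7.7% to 18.5%. The bias between the 3′ and 5′ control probe sets of Gapdh, a sign of RNA length, was 1.94 to 2.69 log2 units on the high salt arrays and 2.44 to 3.30 on the low salt arrays, with the highest value on low salt replicate 1. The median difference over all genes was 0.07, and it grew with level, being -0.04 for the least bright quintile and 0.26 for the brightest.

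No member passed the test. By limma with Benjamini-Hochberg adjustment over all probe sets, 0 of 35 members had an adjusted p below 0.05, where 0.0% of all genes did, and the members' adjusted p ran from 0.803 to 0.997. At an unadjusted p below 0.05 stood 3 members, Pdk2, Eno3 and Ddit4, each higher on high salt, beside 5.72% of all genes on that side, 0.711% on the other and 5.33% of all probe sets in either direction (limma). The 3 arrays of high salt all lay above the 3 of low salt for 5 members, Pdk2, Ddit4, Eno1, Eno3 and Epas1, and for 8.64% of all genes. For 0 members did they all lie below, against 3.32% of all genes. The difference was above 0 for 25 of 35 members, beside 60.0% of all genes. After median centring it was 19 of 35, beside 42.8% of all genes, and after quantile normalization 18 of 35, beside 46.3%. Of the 20 members above the median level of all genes 19 had a difference above 0, and of the 15 below it 6 had. In the brightest quintile of genes lay 16 members, 15 of them above 0, where 78.05% of all genes of that quintile were.

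**Figure D1:**
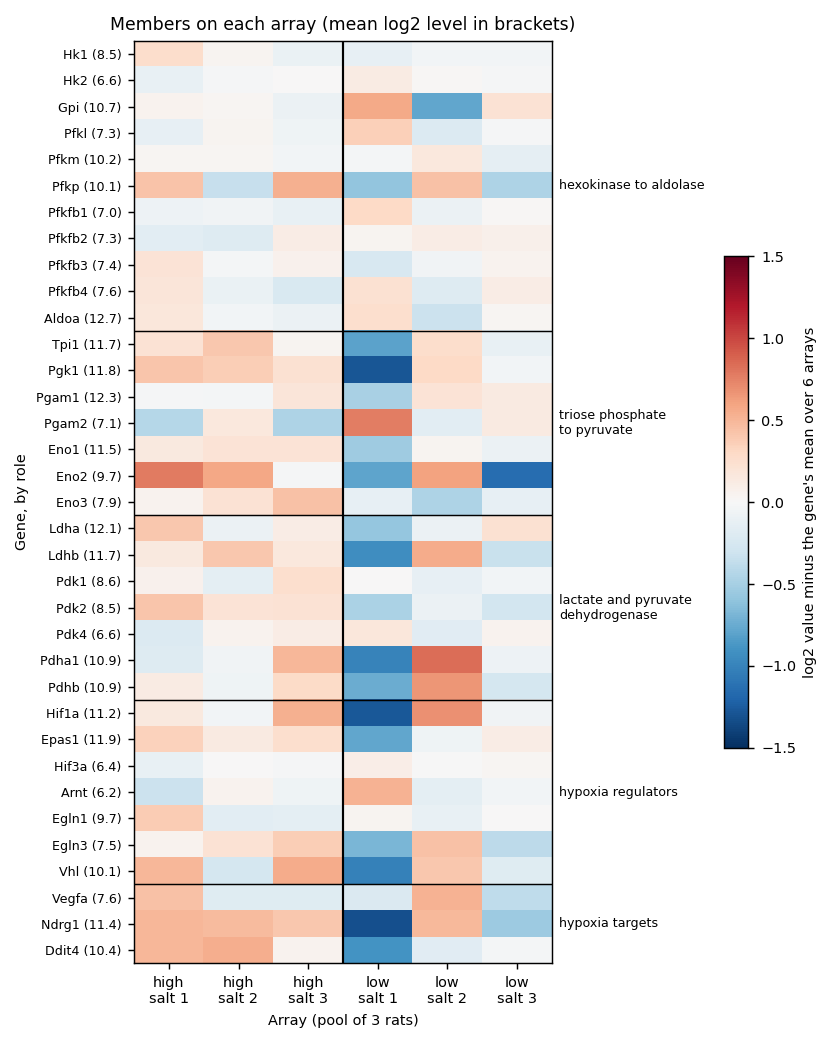
Heat map of the 35 members (rows, by role, with the mean log2 level in brackets) on the 6 arrays (columns, high salt left of low salt). Colour is the log2 value minus the gene's own mean over the arrays, and the column of low salt replicate 1 holds the lowest value of 18 members and the highest of 10.

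The first steps of glycolysis, from hexokinase to aldolase, held no member without overlap between diets. Of these 11 genes 5 had a difference above 0, beside 60.0% of all genes. The median was -0.01, against 0.07 for all genes. Aldoa, the aldolase of muscle and most other tissues, was the brightest, with 12.85, 12.64 and 12.60 on high salt and 12.93, 12.37 and 12.71 on low salt. Its difference of 0.02 ± 0.17 (SE, n = 3 each) lay within the spread of the low salt arrays, whose range enclosed all high salt values. Gpi, which turns glucose phosphate into fructose phosphate, averaged 10.69 ± 0.07 on high salt and 10.70 ± 0.70 on low salt (SD, n = 3 each). Its low salt arrays were far apart, and low salt replicate 2, at 9.92, was below every other array. Of the hexokinases, which trap glucose in the cell, Hk1 differed by 0.13 ± 0.12. Hk2, the insulin-responsive form, lay at 6.55 on average, within the range of the arrays' lower quartiles (6.53 to 6.65), so that little can be read from its difference of -0.09 ± 0.09. The 3 control probe sets of Hk1 had mean levels from 5.04 to 6.89. Their differences, -0.059 (3′), -0.045 (5′) and -0.142 (middle), had the sign opposite to that of the main Hk1 probe set.

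Among the phosphofructokinases, the enzymes of the committed step, Pfkp (the platelet form) varied most. It had 10.55, 9.79 and 10.66 on high salt and 9.54, 10.58 and 9.67 on low salt, a difference of 0.41 ± 0.36. High salt replicate 2 lay with the lower low salt arrays, and low salt replicate 2 with the higher high salt arrays. Pfkm (the muscle form) differed by 0.00 ± 0.11 at a mean level of 10.21, with a 95% interval from -0.27 to 0.27. Pfkl (the liver form) differed by -0.09 ± 0.16. The Pfkfb enzymes make and break a fructose bisphosphate that activates phosphofructokinase and differs from its product, and all 4 lay below the median level of all genes. Pfkfb3, the form with the strongest kinase activity, had 7.65, 7.41 and 7.51 on high salt and 7.20, 7.39 and 7.49 on low salt. The arrays overlapped, and the second probe set of Pfkfb3 went the other way, at -0.33 ± 0.18 against 0.16 ± 0.12. Pfkfb2 had 7.17, 7.13 and 7.44 on high salt and 7.37, 7.44 and 7.40 on low salt, a difference of -0.16 ± 0.11. Pfkfb1 had 6.91, 6.93 and 6.88 on high salt and 7.28, 6.90 and 7.00 on low salt, where low salt replicate 1 alone made most of the difference of -0.15 ± 0.13. It was -0.04 without that array, and -0.24 without low salt replicate 2. Pfkfb4 differed by -0.10 ± 0.16.

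The lower steps, from triose phosphate to pyruvate, had a median difference of 0.44 over 7 tested genes, 6 of them above 0. After median centring the median was 0.31 and after quantile normalization 0.22, and it was 0.21 without low salt replicate 1. Eno1, the enolase found in most cells, had 11.70, 11.76 and 11.76 on high salt and 11.02, 11.59 and 11.46 on low salt. The diets did not overlap, with a difference of 0.38 ± 0.17, which was 0.17 after quantile normalization and 0.21 without low salt replicate 1. Eno3, the enolase of striated muscle, had 7.97, 8.13 and 8.36 on high salt and 7.80, 7.46 and 7.79 on low salt. Here too the diets did not overlap, at a difference of 0.47 ± 0.15, and without low salt replicate 1 it was 0.53. Eno2, the enolase of neurons and neuroendocrine cells, had 10.51, 10.32 and 9.72 on high salt and 8.94, 10.34 and 8.59 on low salt. Its difference of 0.89 ± 0.49 was the second largest of the members after Ndrg1, yet low salt replicate 2 lay among the high salt arrays. Markers of neurons were measured beside it (7 of 8): their mean was 7.61, 7.32 and 7.27 on high salt and 7.07, 7.73 and 6.95 on low salt. These markers went both ways, 4 above 0 and 3 below, with a median difference of 0.05, or -0.08 after median centring. Whether they have a part in the values of Eno2 was not tested. In whole arteries fewer cells of a type and less RNA per cell cannot be told apart.

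Pgk1, phosphoglycerate kinase, which makes the first ATP of the pathway, had 12.21, 12.17 and 12.02 on high salt and 10.51, 12.10 and 11.75 on low salt. The high salt arrays lay close together, and the difference of 0.68 ± 0.41 rested mostly on low salt replicate 1. It was 0.21 without that array, and 1.00 without low salt replicate 2. A second probe set of Pgk1, of a kind that can match several transcripts, gave 1.08 ± 0.55. Tpi1, which interconverts the triose phosphates, averaged 11.87 ± 0.18 on high salt and 11.43 ± 0.54 on low salt (SD, n = 3 each), a difference of 0.44 ± 0.28 that was 0.15 without low salt replicate 1. Pgam1, the brightest tested gene of these steps and the phosphoglycerate mutase of most tissues, had 12.24, 12.22 and 12.44 on high salt and 11.77, 12.46 and 12.39 on low salt. Both diets reached the same level apart from low salt replicate 1, and the difference was 0.09 ± 0.21. Pgam2, the muscle mutase, had 6.68, 7.27 and 6.65 on high salt and 7.87, 6.96 and 7.24 on low salt. It was the lowest of all members in its difference, at -0.49 ± 0.29, or -0.23 without low salt replicate 1, and the arrays overlapped. The per-array values of Pgk1 and Pgam2, and those of Gpi, Pfkp and Hif1a in these paragraphs, were added after the values were seen. The 3′ control probe set of Gapdh had 12.52, 12.64 and 12.57 on high salt and 12.90, 12.21 and 12.75 on low salt. The low salt arrays lay on either side of all high salt arrays, and the mean difference was -0.04, while the middle and 5′ control probe sets gave 0.34 and 0.28.

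The genes around pyruvate held the member with the lowest unadjusted p. Pdk2, a widely expressed kinase that switches pyruvate dehydrogenase off, had 8.94, 8.73 and 8.74 on high salt and 8.06, 8.44 and 8.25 on low salt. The diets did not overlap, and the difference was 0.56 ± 0.14, or 1.47-fold, with an adjusted p of 0.803 (limma, Benjamini-Hochberg). It stayed between 0.46 and 0.65 with any 1 array left out, and the difference under median centring was 0.42 and under quantile normalization 0.39. A second, dimmer probe set of Pdk2 (mean level 7.41) gave -0.07 ± 0.14, and the mean of both sets differed by 0.24. Its relatives differed less. Pdk1, a HIF target, differed by 0.11 ± 0.13, and Pdk4, the kinase that fasting is known to raise, by -0.03 ± 0.14 at a mean level of 6.57. The subunits of the enzyme they act on, Pdha1 and Pdhb, differed by 0.16 ± 0.48 and 0.23 ± 0.36. Both were lowest on low salt replicate 1 (9.87 and 10.16) and highest on low salt replicate 2 (11.72 and 11.56), so that the low salt arrays enclosed the high salt ones.

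Both lactate dehydrogenase genes were bright. Ldha, the muscle type chain that favours lactate production, had 12.49, 12.01 and 12.20 on high salt and 11.51, 12.00 and 12.32 on low salt, a difference of 0.29 ± 0.24. Ldhb, the heart type chain that favours lactate use, had 11.86, 12.12 and 11.87 on high salt and 10.78, 12.27 and 11.38 on low salt, a difference of 0.47 ± 0.37. In both the diets overlapped. The differences were 0.07 and 0.12 without low salt replicate 1, and 0.32 and 0.87 without low salt replicate 2. The 95% intervals, from -0.30 to 0.88 for Ldha and from -0.45 to 1.39 for Ldhb, hold 0 as well as sizeable differences.

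Among the hypoxia regulators, 5 of 7 had a difference above 0, with a median of 0.43, or 0.08 without low salt replicate 1. Epas1, which encodes HIF-2 alpha and is known for its expression in endothelium, was the brightest and the 1 regulator whose diets did not overlap. It had 12.22, 12.00 and 12.12 on high salt and 11.09, 11.80 and 11.98 on low salt, a difference of 0.49 ± 0.24. This was 0.22 without low salt replicate 1, and 0.58 and 0.67 without low salt replicates 2 and 3. Only 0.02 log2 units separated the lowest high salt array from the highest low salt array, and a second probe set, at a mean level of 6.56, gave -0.09 ± 0.13. Endothelial markers, 4 of 6 measured, had a mean of 10.04, 9.94 and 10.10 on high salt and 9.76, 9.40 and 9.75 on low salt. These means did not overlap between diets, but the arrays of each marker taken alone did. Kdr differed by 1.14, against 0.06 for Pecam1, 0.13 for Tie1 and 0.21 for Vwf. The part of these markers in the value of Epas1 was not tested. Hif1a, which encodes HIF-1 alpha, had 11.36, 11.17 and 11.75 on high salt and 9.94, 11.90 and 11.16 on low salt. The low salt arrays held both the lowest and the highest value of Hif1a, and the difference was 0.43 ± 0.50. It turned to -0.10 without low salt replicate 1 and was 0.88 without low salt replicate 2. Its second probe set gave -0.21 ± 0.21. Vhl, the subunit that recognises hydroxylated HIF alpha, had 10.55, 9.79 and 10.61 on high salt and 9.04, 10.46 and 9.87 on low salt, with overlap and a difference of 0.53 ± 0.41. Egln3, a prolyl hydroxylase that is itself induced by HIF, had 7.56, 7.72 and 7.88 on high salt and 6.82, 7.94 and 7.11 on low salt. Its difference was 0.43 ± 0.30, and low salt replicate 2 was its highest array. Egln1, the main prolyl hydroxylase, differed by 0.05 ± 0.17. Arnt, the partner of the alpha subunits, and Hif3a, which can act as an inhibitor of the others, had mean levels of 6.24 and 6.36, below the lower quartile of every array, and differed by -0.23 ± 0.21 and -0.08 ± 0.09.

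Of the 3 hypoxia targets measured, each had a difference above 0, beside 60.0% of all genes. Yet Vegfa stood at -0.08 after median centring. The diets did not overlap for Ddit4. Ndrg1, a stress-induced gene that Schwann cells and other glia also express, had 11.85, 11.83 and 11.76 on high salt and 10.03, 11.84 and 10.81 on low salt. The high salt arrays lay within 0.10 log2 units of each other, low salt replicate 2 was at their level, and the difference was 0.92 ± 0.44, or 1.89-fold. Leaving out low salt replicate 2 gave 1.39, and leaving out low salt replicate 1 gave 0.49. Ddit4 (REDD1), an inhibitor of mTOR signalling that low oxygen, glucocorticoids and other stresses induce, had 10.92, 10.97 and 10.47 on high salt and 9.53, 10.25 and 10.40 on low salt. The diets did not overlap, by 0.08 log2 units at the nearest, and the difference was 0.73 ± 0.27, or 1.66-fold, with a range of 0.47 to 0.90 when 1 array was left out. Vegfa, the growth factor of endothelium, had 8.00, 7.38 and 7.38 on high salt and 7.35, 8.08 and 7.18 on low salt. In each diet 1 array was high, the difference was 0.05 ± 0.30, and a second probe set of Vegfa gave -0.01 ± 0.10. The 95% intervals of the targets, -0.16 to 2.01 for Ndrg1, 0.07 to 1.40 for Ddit4 and -0.68 to 0.78 for Vegfa, overlapped, and the differences between the targets were not tested.

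**Figure D2:**
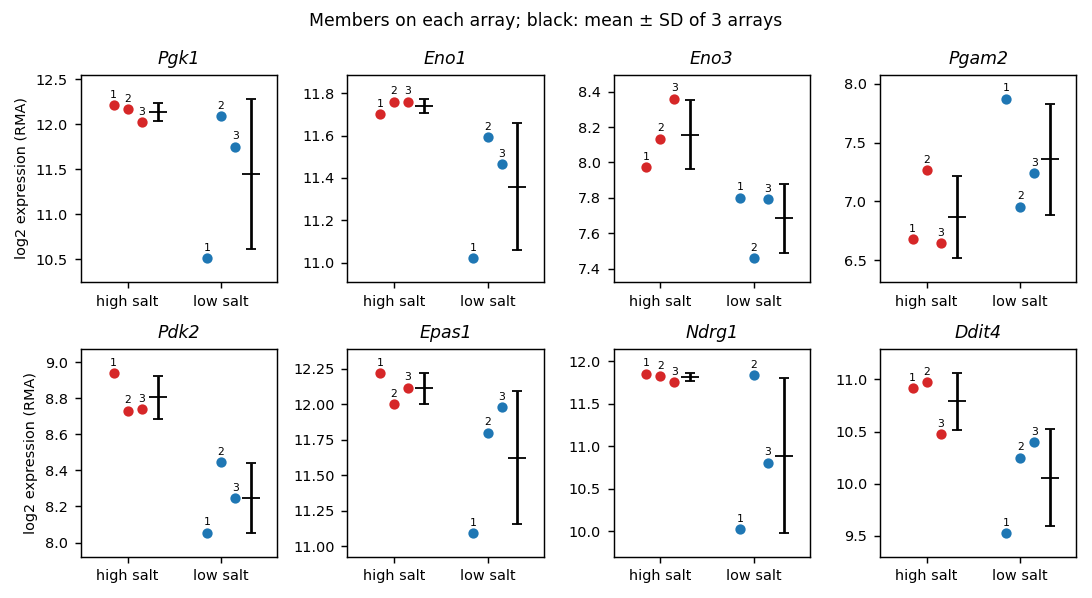
Log2 expression of 8 members on each array (points, numbered by replicate, red for high salt and blue for low salt), with the mean and SD of the 3 arrays of a diet in black; each panel has its own vertical scale, which does not start at 0. Eno1, Eno3, Pdk2, Epas1 and Ddit4 do not overlap between diets, and low salt replicate 1 is the lowest array for Pgk1 (10.51), Ndrg1 (10.03) and Ddit4 (9.53) and the highest for Pgam2 (7.87).

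Set side by side, the hypoxia genes had a median difference of 0.43 over 10 genes (8 above 0). The glycolytic genes had 0.13 over 25 (17 above 0), beside 0.07 over all genes (60.0% above 0). The mean over glycolytic genes minus that over hypoxia genes was 0.12, 0.23 and 0.16 log2 units on the high salt arrays, and 0.56, 0.10 and 0.31 on the low salt arrays. The low salt arrays fell on both sides of the high salt ones, and the gap between the diets, -0.16, was -0.04 without low salt replicate 1. The median of the hypoxia genes was 0.11 without that array, and 0.16 when all probe sets of a gene were averaged. Glycolytic genes stood at a median of 0.0039 after median centring and -0.03 after quantile normalization, where the hypoxia genes stood at 0.30 and 0.25. Among the 12 members with further probe sets, 9 of the 15 further sets had the sign opposite to the main one. All but 1 of these 15 lay below the median level of all genes, 8.62, since the brightest set of a gene was taken as its main one.

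**Figure D3:**
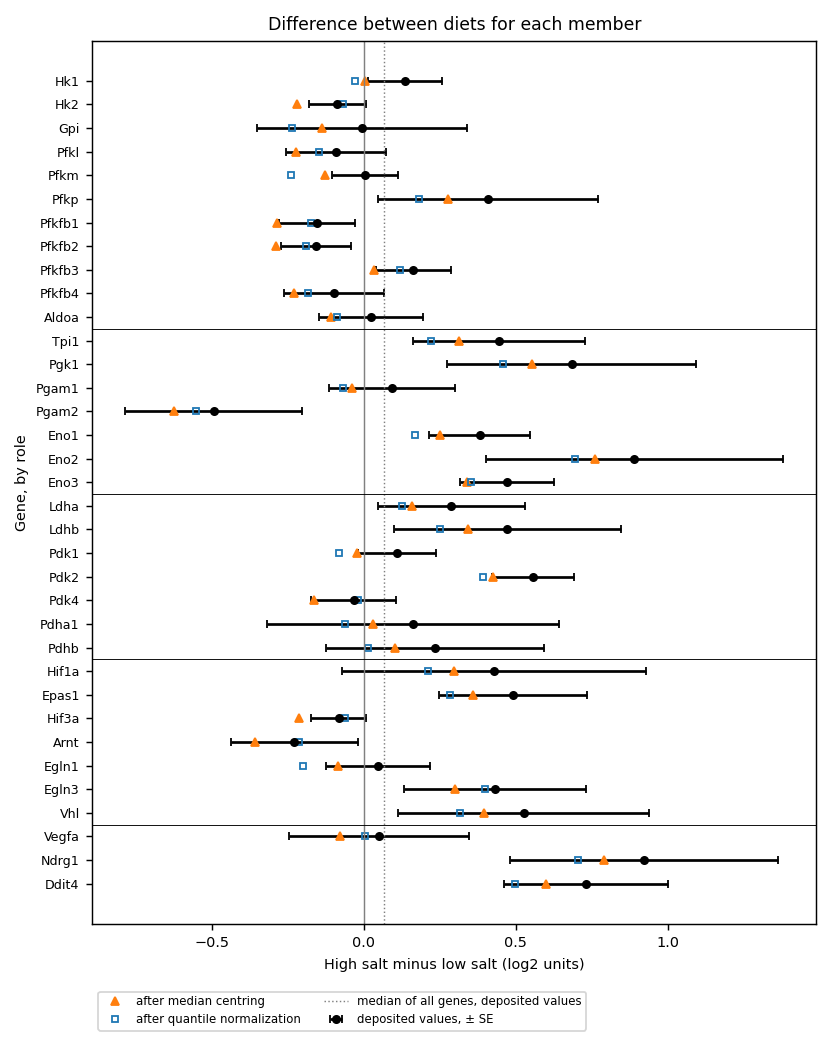
Difference between diets for each of the 35 members (rows, by role), in log2 units as the high salt mean minus the low salt mean: black points with SE bars for the deposited values, orange triangles after median centring and blue squares after quantile normalization. Ndrg1 (0.92), Eno2 (0.89), Ddit4 (0.73) and Pgk1 (0.68) lie farthest to the right and Pgam2 (-0.49) farthest to the left. Median centring moves every member to the left by the same amount, and quantile normalization moves most bright genes to the left.

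The members varied more among the low salt arrays. For 30 of 35 the SD was larger on low salt than on high salt, beside 71.0% of all genes, with median SDs of 0.17 on high salt and 0.38 on low salt. Low salt replicate 1 held the lowest value of 14 of the 20 members above the median level, and the highest value of 8 of the 15 below it. The mean of the 20 brighter members was 11.23, 11.07 and 11.17 on high salt and 10.37, 11.18 and 10.84 on low salt, while that of the 15 dimmer members was 7.31, 7.33 and 7.31 on high salt and 7.36, 7.27 and 7.25 on low salt. Low salt replicate 2 thus sat with the high salt arrays for the mean of the brighter members, and the mean of the dimmer ones hardly varied. Single dimmer members did vary, such as Pgam2 (6.65 to 7.87) and Egln3 (6.82 to 7.94). Markers of astrocytes, cells whose endfeet cover brain vessels, had a mean of 10.65, 10.21 and 10.31 on high salt and 9.10, 10.58 and 8.34 on low salt (9 of 9 measured). Smooth muscle markers, 7 of 7 measured, had 11.69, 11.60 and 11.60 on high salt and 12.11, 11.39 and 12.19 on low salt. By these means, astrocyte markers were low and smooth muscle markers high on low salt replicates 1 and 3, and the reverse held for low salt replicate 2. Single markers differed. On low salt replicate 1 Acta2 (11.34) and Myl9 (14.13) lay above their high salt ranges, but Myh11 (13.29) and Cnn1 (10.52) within theirs. Aqp4 (6.26) and Mlc1 (7.56) lay below theirs there, but Slc1a2 (6.96) had its highest value. The part of these markers and of the narrow spread of low salt replicate 1 in the members' differences was not tested.

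**Figure D4:**
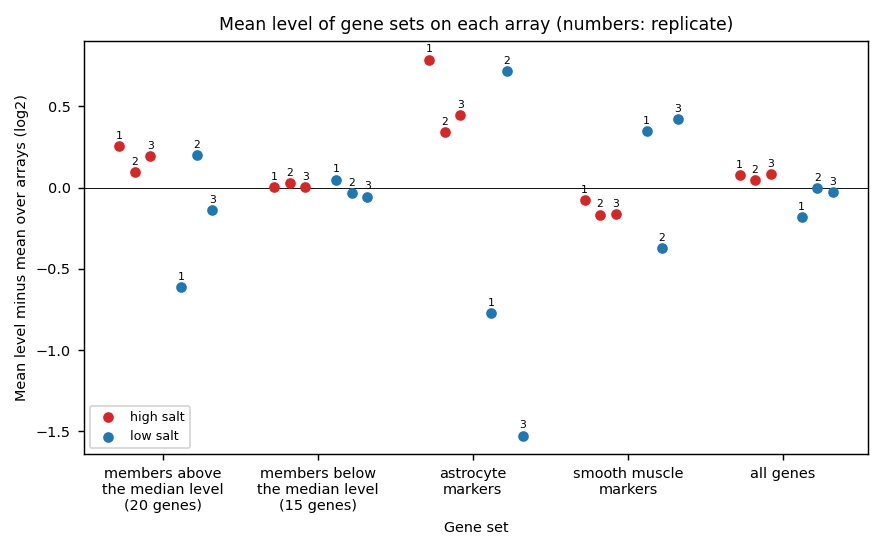
Mean log2 level of 5 gene sets on each array, minus the mean of the set over the 6 arrays (vertical axis), with high salt in red left of low salt in blue and replicates numbered. The brighter members are lowest on low salt replicate 1 and at the level of the high salt arrays on low salt replicate 2, and astrocyte markers have the widest range, 8.34 to 10.65 before centring.

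Other genes of these pathways, from 4 lists, had 0 of 53 past the threshold (limma, Benjamini-Hochberg), with a lowest adjusted p of 0.803. At an unadjusted p below 0.05 stood 7 of them on the high side and 2 on the low side, beside 5.72% and 0.711% of all genes (limma). Of the 7 genes of glucose and lactate transport 5 had a difference above 0 (median 0.23), beside 60.0% of all genes. After median centring it was 5, beside 42.8% of all genes, and after quantile normalization 5, beside 46.3%. Slc2a4, the insulin-regulated glucose transporter of muscle and fat, was the 1 whose diets did not overlap, with 8.36, 8.62 and 8.22 on high salt and 8.67, 8.80 and 9.11 on low salt. The difference was -0.46 ± 0.17, and -0.63 after quantile normalization. For 3.32% of all genes the high salt arrays likewise all lay below the low salt arrays. Slc16a7, a monocarboxylate transporter with high affinity for pyruvate, differed by -0.46 ± 0.25, and Bsg, the chaperone of the lactate transporters, by 0.55 ± 0.28. Of 14 further enzymes of glycolysis, pyruvate use and the pentose phosphate pathway 11 had a difference above 0, with a median of 0.44. The count was 11 under each scaling too, against the same shares of all genes. The pentose phosphate pathway draws glucose 6-phosphate away from glycolysis to make NADPH and ribose. Of its 5 enzymes measured, Pgd (phosphogluconate dehydrogenase, 0.74 ± 0.20), Tkt (transketolase, 0.70 ± 0.17) and Taldo1 (transaldolase, 0.72 ± 0.25) each had all high salt arrays above all low salt arrays. The same held for 8.64% of all genes. The other two, named after their values were seen, overlapped: Rpia, which makes ribose phosphate, differed by 0.42 ± 0.37, and Pgls, a lactonase, by -0.11 ± 0.38. Tkt, for one, had 11.29, 11.13 and 11.17 on high salt and 10.16, 10.71 and 10.63 on low salt. After quantile normalization these 3 differences were 0.50, 0.47 and 0.50. Bpgm, which makes bisphosphoglycerate and is known best from red blood cells, differed by 0.53 ± 0.16 without overlap. The mean of the red blood cell markers (3 of 4 measured) was 10.46 to 11.18 on high salt and 10.03 to 10.22 on low salt, and their part in the value of Bpgm was not tested.

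Of the 7 glycogen genes 6 had a difference above 0 (median 0.19), beside 60.0% of all genes. After median centring it was 4, beside 42.8% of all genes, and after quantile normalization 3, beside 46.3%. Pygm, the muscle form of glycogen phosphorylase, differed by -0.52 ± 0.19 with every high salt array below every low salt array, and Pygb, the brain form, by 0.19 ± 0.22. Pgm1, phosphoglucomutase, differed by 0.26 ± 0.12 without overlap, but by 0.03 after quantile normalization, and Ugp2, which makes UDP-glucose, by 0.37 ± 0.26. Of all genes, 8.64% were higher on high salt without overlap and 3.32% lower. Pgam2, Slc2a4 and Pygm, all known from skeletal muscle, lay on the low side, while the muscle forms Eno3 and Pfkm did not. Skeletal muscle markers, 8 of 8 measured, had a mean of 6.74, 6.93 and 6.79 on high salt and 7.30, 6.86 and 7.10 on low salt. Ckm (-0.98), Myh1 (-0.58) and Acta1 (-0.40) differed most, at mean levels of 7.70, 12.26 and 6.45. The level of Acta1 lay below the lower quartile of every array. Myh1 had 4 further probe sets, whose values are not given here. Myog differed by -0.10, and Myh2, Myh4, Tnnt3 and Mb, at mean levels of only 4.86 to 5.91, by -0.10 to 0.05. The part of these markers in the values of Pgam2, Slc2a4 and Pygm was not tested. Of 25 further hypoxia genes 23 had a difference above 0, with a median of 0.38, which quantile normalization left at 0.24 and the removal of low salt replicate 1 at 0.22. Adm, the vasodilator adrenomedullin and a HIF target, had 7.74, 8.11 and 7.84 on high salt and 7.05, 7.54 and 6.85 on low salt, a difference of 0.75 ± 0.21. Hmox1, heme oxygenase, differed by 0.43 ± 0.11, and the collagen lysyl hydroxylase Plod1 by 0.72 ± 0.22, again without overlap. Bnip3l, a mitophagy receptor and the brightest of this list, differed by 0.02 ± 0.16. The diets did not overlap for 5 of these 25 genes, each higher on high salt, beside 8.64% of all genes. Aldoc and Kdr, in these lists, also serve as markers of astrocytes and endothelium above.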

How the data were processed

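Total RNA from pooled arteries was amplified in 2 cycles and hybridised to Affymetrix rat arrays, 1 per pool, per the labels' protocols. The authors deposited log2 expression values made with RMA, per the submitters' processing notes, with no version given there. Base 2 was read from the range of the values. The number of arrays limits the precision. From 15923 rows, 57 control probe sets were left out. Symbols came from the platform annotation, and 12748 of 12783 probe sets with 1 symbol matched RefSeq (GRCr8) by Entrez identifier. Each gene was represented by its brightest probe set, by mean log2 value. limma 3.58.1 in R 4.3.3 compared 3 high salt with 3 low salt arrays (lmFit, eBayes, no block), with Benjamini-Hochberg adjustment over all 15866 probe sets. These p-values measure the spread between pools, its technical part included. The steps were tested on simulated data. Members, lists and the rule for named genes were chosen with earlier results of these data known. That rule gave values on every array for members without overlap, the 3 of lowest p and the brightest of each role, and named the same 3 and brightest of each further list. Same-numbered replicates were not treated as pairs, since their deviations from the diet means correlated by 0.04, -0.27 and 0.04 for numbers 1, 2 and 3.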

Additional observations from a re-analysis of the deposited data

How the results depend on the processing

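No member and no probe set passed the adjusted threshold under any alternative run. These were 2 scalings (median centring and quantile normalization), leaving out probe sets below the 40th percentile of mean level, trended and robust variances, array weights (whose iteration stopped before its tolerance), the replicate number as a block, each array left out, adjustment over 1 probe set per gene, and an adjusted p below 0.10. Members' adjusted p (limma, Benjamini-Hochberg) went down to 0.143. The unadjusted threshold of 0.05 (limma) was met by 846 probe sets and 3 members. With the replicate number as a block the counts stayed at 0 and 0, and the medians at 0.13 for glycolytic and 0.43 for hypoxia genes.

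The glycolytic median was 0.0039 after median centring, 0.26 with the dimmest probe sets left out and -0.028 under quantile normalization, and 0.07 to 0.21 with 1 array left out. The hypoxia median was 0.16 with probe sets averaged, and 0.11 (without low salt replicate 1) to 0.67 with 1 array left out. The median of the other pathway genes, 0.37, was 0.15 after quantile normalization. Chosen after seeing the data were the counts of members by sign and by overlap under the scalings and with 1 array left out. Members without overlap numbered 6 with medians centred (17.9% of all genes) and 4 under quantile normalization (12.4%). With 1 array left out, where fewer arrays make overlap less likely, they numbered 5 to 18: 10 and 9 without high salt replicates 2 and 3 (23.6% and 21.8% of all genes), and 18 and 8 without low salt replicates 2 and 3 (41.2% and 18.8%). Members above 0 numbered 19 and 18 under the 2 scalings, and 22 to 25 with 1 array left out.

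The sign of 21 members held under every alternative run. It turned for 14, and the cause was not tested. Median centring gave Pfkm -0.13, Aldoa -0.11, Pgam1 -0.038, Pdk1 -0.022, Egln1 -0.084 and Vegfa -0.080. Quantile normalization gave Hk1 -0.028, Pfkm -0.24, Aldoa -0.088, Pgam1 -0.067, Pdk1 -0.083, Pdha1 -0.060 and Egln1 -0.20. Array weights gave Pgam1 -0.025, and averaged probe sets gave Pfkfb3 -0.085 and Egln1 -0.074. With 1 array left out the ranges that spanned 0 were -0.39 to 0.28 for Gpi, -0.22 to 0.066 for Pfkl, -0.060 to 0.085 for Pfkm, -0.13 to 0.15 for Aldoa, -0.13 to 0.22 for Pgam1, -0.12 to 0.061 for Pdk4, -0.30 to 0.62 for Pdha1, -0.077 to 0.62 for Pdhb, -0.10 to 0.88 for Hif1a, -0.13 to 0.14 for Egln1 and -0.15 to 0.32 for Vegfa. For 9 of the 14 the sign turned without low salt replicate 1.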
